A study of Mus musculus with 5 samples.

Results

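The BCL2 family decides at the outer mitochondrial membrane whether a cell enters apoptosis. A set of 10 of its genes was followed in GL261 cells: the BH3-only genes Bik, Bbc3, Bcl2l11, Bid and Bmf, the pore-forming genes Bax and Bak1, and the survival genes Bcl2, Bcl2l1 and Mcl1. They were taken by gene name from the deposited transcript tables, and all 10 were found among 55387 genes with a transcript there. All 10 also passed the minimum mean of 1 TPM (a share of all transcripts, corrected for length) that left 13881 genes for testing. The set was chosen by the measured TPM values of Bik, whose difference between the salts was already known, so the differences of the members are given below as a description, without a test of their own.

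GL261 is a mouse glioma cell line. Cells had received sodium propionate (2 libraries, replicates 2 and 3) or sodium chloride as the control salt (3 libraries, replicates 1, 2 and 3), and total RNA was taken 24 h later. Propionate replicate 1 was not analysed here. The labels give a dose of 1 uM for both salts, and its unit could not be checked. All libraries come from the same line in culture, with no other genotype or agent named, and the labels do not say whether replicates were separate cultures, so p-values cover no more than the scatter among the samples, part of which may be technical.

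The BH3-only proteins are the sensors of the family. Each uses a short helix, the BH3 domain, to bind the groove of survival proteins such as BCL2, BCL-XL and MCL1, and some of them also activate BAX and BAK directly. Activated BAX and BAK form pores in the outer membrane, cytochrome c escapes, and the apoptosome switches on the caspases. Human BIK is unusual in that much of it sits in the membrane of the endoplasmic reticulum. In gliomas, high levels of the survival members are a well-known feature.

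The feature that unites the 10 genes is the core of the BH3 domain, shown here because it is the contact through which the products of the described genes meet. It was found in GENCODE M21 coding sequences (mouse build GRCm38, which mm10 names) as a run of 6 codons: a leucine codon, 3 codons of any kind, a glycine or alanine codon and an aspartate codon. The DNA of that run is given 5′ to 3′ on the coding strand, with the fixed codons in capitals and the 3 free codons in lower case.
Bik: CTGgcctgcatcGGCGAT
Bbc3: CTGcggcggatgGCGGAC
Bcl2l11: CTGcggcggatcGGAGAC
Bid: CTCgcccaaataGGCGAT
Bmf: CTTcagtgtattGCAGAC
Bax: CTCcggcgaattGGAGAT
Bak1: CTTgctctcatcGGAGAT
Bcl2: CTCcgccgggctGGGGAT
Bcl2l1: CTGagagaggcaGGCGAT
Mcl1: CTGcggcgcgtgGGCGAC
The fifth codon is a glycine codon in 8 genes and an alanine codon in 2, Bbc3 and Bmf. Each gene has 1 such run, and it is identical in all of its annotated coding transcripts that hold it (30 transcripts over the 10 genes). The core of Bik shares 13 of 18 bases with that of Bak1 and 13 with that of Bid, and 9 with that of Bcl2, of Bcl2l1, of Bbc3 and of Bmf. The closest pair of the family is Bbc3 and Bcl2l11, with 15 shared bases, and the least alike is Bmf and Bcl2l1, with 5. Part of the sharing in every pair follows from the search, which required the fixed codons. These runs place the part of each transcript whose coverage is described below.

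Among the BH3-only genes, Bik had the largest difference between the groups. The set was chosen for that difference, so the rank of Bik among all genes is a description. Bik (ENSMUSG00000016758, chr15:83526862-83544634, plus strand) was measured at 8.11 and 10.9 TPM in the propionate libraries, against 5.02, 4.997 and 3.45 TPM in the chloride libraries. Both propionate libraries lay above all chloride libraries. The means were 9.52 ± 2.01 TPM with propionate (SD, n = 2) and 4.49 ± 0.902 TPM with chloride (SD, n = 3), a ratio of 2.12. On the log2(TPM + 1) scale, which understates the change of low genes, the difference was 0.94 ± 0.18 (SE), and 0.821% of all tested genes had a difference at least as high. The summed coverage of the gene, in reads per base, was 40.4 and 51.8 with propionate, against 24.7, 24.4 and 16.9 with chloride. That coverage comes from the same reads as the TPM. A processed pseudogene on the opposite strand within the gene, Gm46495, reached no more than 0.461 TPM in any library.

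Bik was the 1 member past the threshold of limma across all genes (Benjamini-Hochberg adjusted p under 0.05), where 1.31% of all tested genes were called higher and 0.504% lower. Because Bik was chosen for this difference, nothing is read from that count. The call was lost without chloride replicate 1, chloride replicate 3, propionate replicate 2 or propionate replicate 3, with differences of 1.01, 0.80, 1.14 and 0.74 on the log2 scale. It was also lost with no minimum TPM and with reference transcripts only, both at an unmoved 0.94. With 3 libraries against 2, an exact permutation test of a single gene cannot give a p under 0.1.

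**Figure D1:**
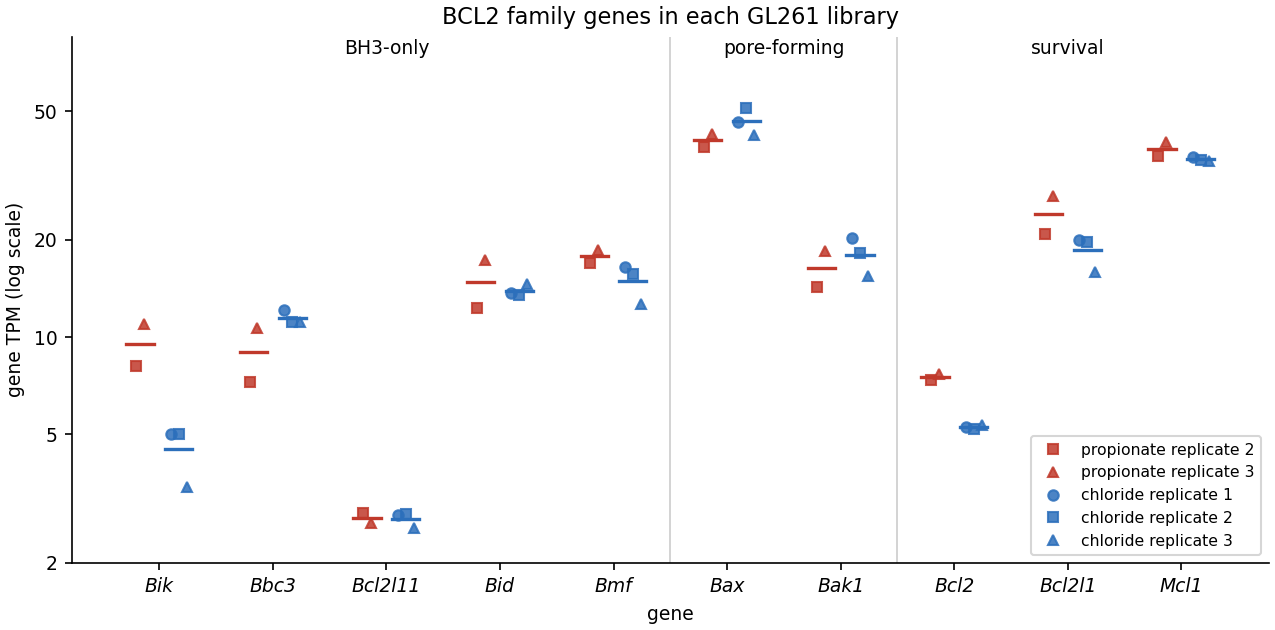
Gene TPM (log axis) of the 10 BCL2 family genes in each library, propionate in red to the left of chloride in blue. Symbols mark the replicate number and horizontal bars the group means; the propionate values of Bik, 8.11 and 10.9 TPM, sit above the 3 chloride values, and those of Bcl2 do so with little spread.

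Nearly all of Bik came from its main transcript. Bik-201, which codes for 150 codons, held 97.0% and 97.6% of the gene's TPM in the propionate libraries, against 78.2%, 91.8% and 100% in the chloride libraries. Its level was 7.86 and 10.7 TPM with propionate, against 3.92, 4.59 and 3.45 TPM with chloride, without overlap. Bik-201 is nearly all of a gene chosen for its difference, so this adds no support of its own. Bik-204 has the same 150 codons and made up most of the rest, at 0.175 and 0.245 TPM with propionate and 1.10, 0.314 and 0 TPM with chloride. Every Bik transcript with a value above 0 holds the BH3 core, which lies at codons 55 to 60 of Bik-201, at chr15:83543084-83543101.

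Coverage along the 5 exons of Bik-201 was scaled so that a transcript of 1 TPM has a coverage of 1. It comes from the same reads as the TPM of Bik, which was chosen for its difference. The exon values thus describe where that difference lies and add no support of their own. In exon 3, which carries the core, scaled coverage was 11.3 and 19.0 with propionate, against 4.69, 5.42 and 2.87 with chloride, a ratio of 3.50. Exons 2, 4 and 5 were also higher in both propionate libraries, with ratios of 2.39, 2.42 and 1.71. Exon 1 overlapped between the groups, at 4.07 and 10.3 with propionate and 4.35, 4.54 and 1.599 with chloride. It is also the shortest exon of the transcript, with 75 bases. Here and below, the share of all exons without overlap was not computed, so nothing is read from counts of such exons. Among all tested genes, 34.6% were without overlap.

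**Figure D2:**
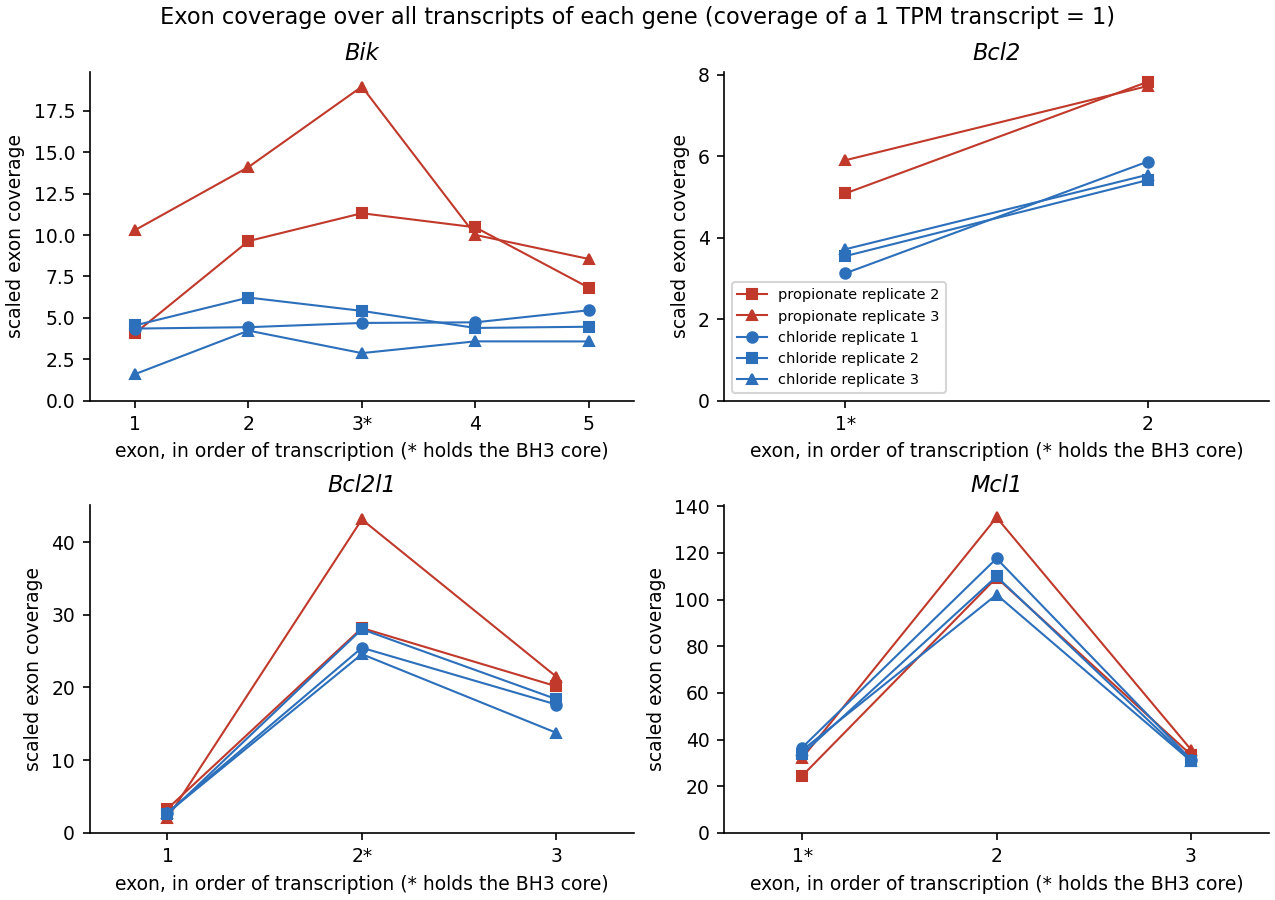
Coverage of each exon of the main reference transcript, summed over all transcripts of the gene and scaled to TPM, for Bik, Bcl2, Bcl2l1 and Mcl1. Each line is a library, propionate in red and chloride in blue, and the asterisk marks the exon with the BH3 core. The groups are apart in 4 of 5 exons of Bik and in both exons of Bcl2. Exons 1 and 3 of Mcl1 differ in opposite directions. The share of all exons whose groups are apart was not computed.

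The remaining BH3-only genes went different ways. Bbc3 codes for PUMA, a direct transcriptional target of p53. Bbc3 (ENSMUSG00000002083) had 7.23 and 10.7 TPM with propionate, against 12.1, 11.1 and 11.1 TPM with chloride. Both propionate libraries were below all chloride libraries, by −0.34 ± 0.15 (log2 scale, SE), although propionate replicate 3 came within 0.5 TPM of the chloride values. Without propionate replicate 2 the difference was −0.089, and without propionate replicate 3 it was −0.60. None of the 4 exons of Bbc3-201 was without overlap between the groups. In exon 3, which holds its core (chr7:16313773-16313790, plus strand), scaled coverage was 10.2 and 13.9 with propionate, against 14.9, 14.2 and 13.5 with chloride.

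Bcl2l11 (ENSMUSG00000027381), the gene of BIM, was the lowest member in both groups. Its level was 2.85 and 2.66 TPM with propionate, against 2.82, 2.83 and 2.57 TPM with chloride. The difference was 0.00 ± 0.14 on the log2 scale, and its sign turned to −0.03 without chloride replicate 3 and without propionate replicate 2. Beneath that level sum, the estimates of its transcripts moved freely between libraries of the same group. Bcl2l11-205, the long coding form with 196 codons, held 5.65% and 35.6% of the gene with propionate, against 57.8%, 6.94% and 3.40% with chloride. The 140-codon form Bcl2l11-203 held 26.9% and 31.8% with propionate, against 8.92%, 44.2% and 0% with chloride. An assembled form with 5 exons in the same locus held 48.4% and 0% with propionate, against 7.59%, 1.42% and 63.0% with chloride. Its length is close to that of Bcl2l11-203 (4858 against 4857 bases). How reads were split between these forms is an estimate, so the 0% in chloride replicate 3 is not read as absence of Bcl2l11-203. The forms with 110 codons, Bcl2l11-201 and Bcl2l11-204, were listed at 0 in all 5 libraries. The core lies in exon 4 of Bcl2l11-203 (chr2:128147150-128147167, plus strand), where the groups overlapped. Exon 1 was higher without overlap, at a scaled coverage of 1.86 and 1.71 with propionate, against 1.41, 1.28 and 1.07 with chloride, and exon 3 was lower, at 3.01 and 3.44 with propionate, against 3.77, 4.22 and 4.39 with chloride.

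Bid links death receptors to mitochondria, since caspase-8 cuts its product into an active fragment. Bid (ENSMUSG00000004446) had 12.3 and 17.3 TPM with propionate, against 13.7, 13.5 and 14.5 TPM with chloride. The propionate libraries enclosed the chloride libraries, the difference was 0.07 ± 0.14 (log2 scale, SE), and it was −0.17 without propionate replicate 3. Its core lies in exon 4 (chr6:120897298-120897315, minus strand), where the groups overlapped too. Exon 1 was higher without overlap, with a scaled coverage of 7.25 and 8.04 with propionate, against 6.05, 6.49 and 5.63 with chloride. Exon 5 was lower, at 15.03 and 15.5 with propionate, against 16.6, 16.0 and 15.8 with chloride. At its 3′ end Bid lies beside Bcl2l13 on the opposite strand, which had 9.62 to 11.6 TPM with propionate and 8.90 to 11.3 TPM with chloride. No strand option was set in the quantification, so reads of such neighbours cannot be told apart where they overlap.

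Bmf (ENSMUSG00000040093), whose product is held on the cytoskeleton by dynein light chain until it is released, was the highest BH3-only gene by group mean, although Bid was above it in chloride replicate 3. Its level was 16.99 and 18.6 TPM with propionate, against 16.4, 15.7 and 12.7 TPM with chloride. The groups did not overlap, and the difference was 0.24 ± 0.13 on the log2 scale, or 0.14 without chloride replicate 3. Bmf-201 held 94.6% and 94.8% of it with propionate, against 92.7%, 86.8% and 92.9% with chloride. Of its 5 exons, the first and the last were higher without overlap, and exon 4 with the core (chr2:118545109-118545126, minus strand) overlapped.

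Summed over the 5 BH3-only genes, the level was 47.5 and 60.2 TPM with propionate, against 50.1, 48.1 and 44.3 TPM with chloride, so the groups overlapped. Bik supplied 17.1% and 18.2% of that sum with propionate, against 10.02%, 10.4% and 7.77% with chloride. Without Bik the sum was 39.3 and 49.2 TPM with propionate, against 45.1, 43.1 and 40.9 TPM with chloride.

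**Figure D3:**
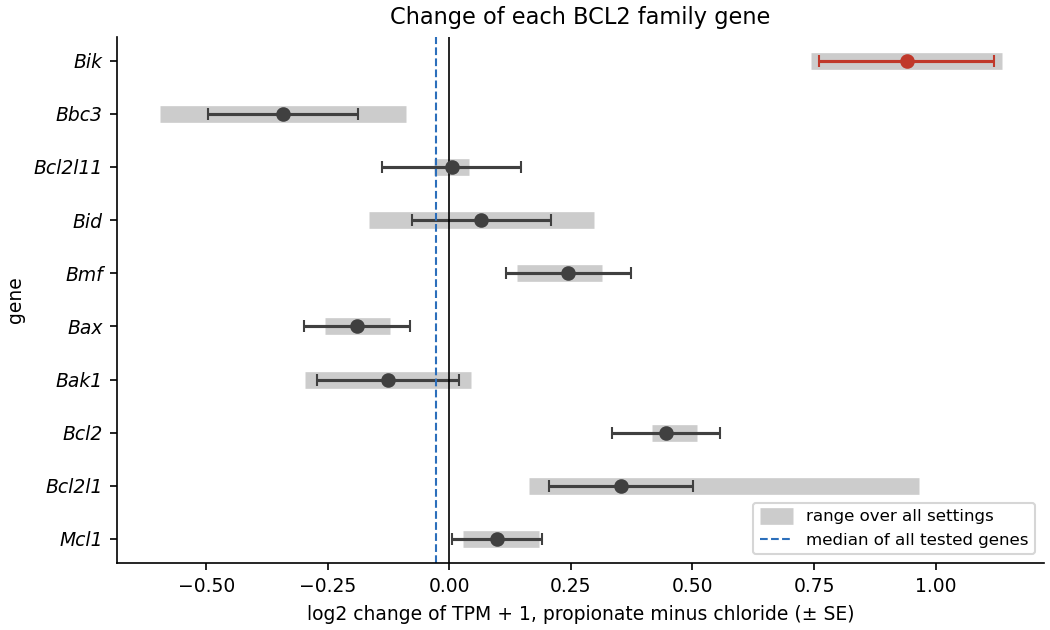
Difference of log2(TPM + 1), propionate minus chloride, for each member with its standard error; red marks Bik, the member past the threshold across all genes. Grey bars span the values over all settings tried (0.74 to 1.14 for Bik) and the dashed line is the median of all tested genes, −0.03.

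Both pore-forming genes had lower means with propionate, with overlapping libraries. Bax (ENSMUSG00000003873) was the most abundant member, at 38.8 and 42.5 TPM with propionate, against 46.2, 51.3 and 42.3 TPM with chloride. Its difference was −0.19 ± 0.11 on the log2 scale, −0.12 without chloride replicate 2 and −0.13 without propionate replicate 2, and propionate replicate 3 lay just above chloride replicate 3. Within Bax-201, exons 4, 5 and 6 were lower in both propionate libraries, with ratios of 0.868, 0.789 and 0.816. Exons 1 to 3 overlapped, and exon 3 holds the core (chr7:45466006-45466023, minus strand).

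Bak1 (ENSMUSG00000057789) had 14.3 and 18.4 TPM with propionate, against 20.2, 18.2 and 15.4 TPM with chloride. All 6 exons of Bak1-202 overlapped between the groups, the exon with the core (chr17:27022540-27022557, minus strand) included, and the difference was −0.13 ± 0.15 on the log2 scale, or 0.044 without propionate replicate 2, −0.30 without propionate replicate 3, −0.042 without chloride replicate 1 and −0.22 without chloride replicate 3. A transcript annotated for nonsense-mediated decay, Bak1-204, stops after 79 codons and does not reach the core. It was estimated at 0.403 and 1.54 TPM with propionate, against 0, 0 and 5.41 TPM with chloride. Chloride replicate 3 therefore had 65.0% of its Bak1 level in transcripts that code for the core, while the other chloride libraries had 100% each. Ggnbp1 overlaps Bak1 on the opposite strand as 2 annotated genes, neither of which exceeded 3.13 TPM.

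The 3 survival genes of the set had higher means with propionate, without overlap between the groups. Across all tested genes, 14.8% were higher without overlap. In Mcl1 the gap was narrow, and Bcl2l2, a survival gene outside the set, had a lower mean with propionate. Bcl2, the founding member, blocks both BH3-only proteins and the pore formers. Bcl2 (ENSMUSG00000057329) had 7.37 and 7.68 TPM with propionate, against 5.26, 5.18 and 5.33 TPM with chloride. The spread within each group was small, with SDs of 0.220 and 0.0784 TPM, the ratio of the means was 1.43 and the difference 0.45 ± 0.11 on the log2 scale. It was not past the threshold across all genes, either in the test as reported or in any of the 13 alternative settings, where its difference ran from 0.42 to 0.51. Both exons of Bcl2-201 were higher with propionate. Exon 1, which holds the core (chr1:106712584-106712601, minus strand), had a scaled coverage of 5.09 and 5.90 with propionate, against 3.13, 3.55 and 3.72 with chloride.

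Bcl2l1 (ENSMUSG00000007659) codes for BCL-XL. Its level was 20.8 and 27.3 TPM with propionate, against 20.03, 19.7 and 15.9 TPM with chloride, a difference of 0.35 ± 0.15 on the log2 scale. Leaving out propionate replicate 2 gave 0.54 and leaving out propionate replicate 3 gave 0.16. Propionate replicate 2 lay close above the chloride libraries and propionate replicate 3 well above them. The split between its transcripts was uneven. The reference form Bcl2l1-201 was estimated at 10.7 and 20.9 TPM with propionate, against 5.56, 9.77 and 5.45 TPM with chloride. An assembled form with 3 exons in the same locus was at 0.241 and 0 TPM with propionate, against 10.4, 0.804 and 3.45 TPM with chloride. It is nearly the same as Bcl2l1-201 in span and length (2437 against 2417 bases). How reads were split between these forms is thus an estimate, and no switch of form is read from it. Assembled forms together made up 11.9% and 6.54% of the gene with propionate, against 59.6%, 24.2% and 38.7% with chloride. The difference of the gene is for this reason 0.97 when only reference transcripts are summed. Exon coverage was summed over all of these forms: exons 2 and 3 of Bcl2l1-201 had ratios of 1.37 and 1.25, without overlap, and exon 2 carries the core (chr2:152829706-152829723, minus strand).

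Mcl1 (ENSMUSG00000038612) codes for a short-lived survival protein that is renewed continuously. It had 36.2 and 40.0 TPM with propionate, against 36.1, 35.3 and 35.2 TPM with chloride. Propionate replicate 2 lay less than 0.1 TPM above chloride replicate 1, and the difference was 0.10 ± 0.09 on the log2 scale, 0.17 without propionate replicate 2 and 0.028 without propionate replicate 3. Its exons did not move together. Exon 1, with the core (chr3:95659436-95659453, plus strand), had a scaled coverage of 24.4 and 32.0 with propionate, against 36.5, 33.7 and 35.3 with chloride. The long exon 3 had 33.4 and 35.7 with propionate, against 31.4, 30.9 and 30.8 with chloride. Exon 1 was thus lower and exon 3 higher, each without overlap. Exon 2 overlapped, at 109 and 135 with propionate, against 118, 110 and 102 with chloride. Coverage was thus far from even along the transcript in every library, which limits what the exon differences can show.

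**Figure D4:**
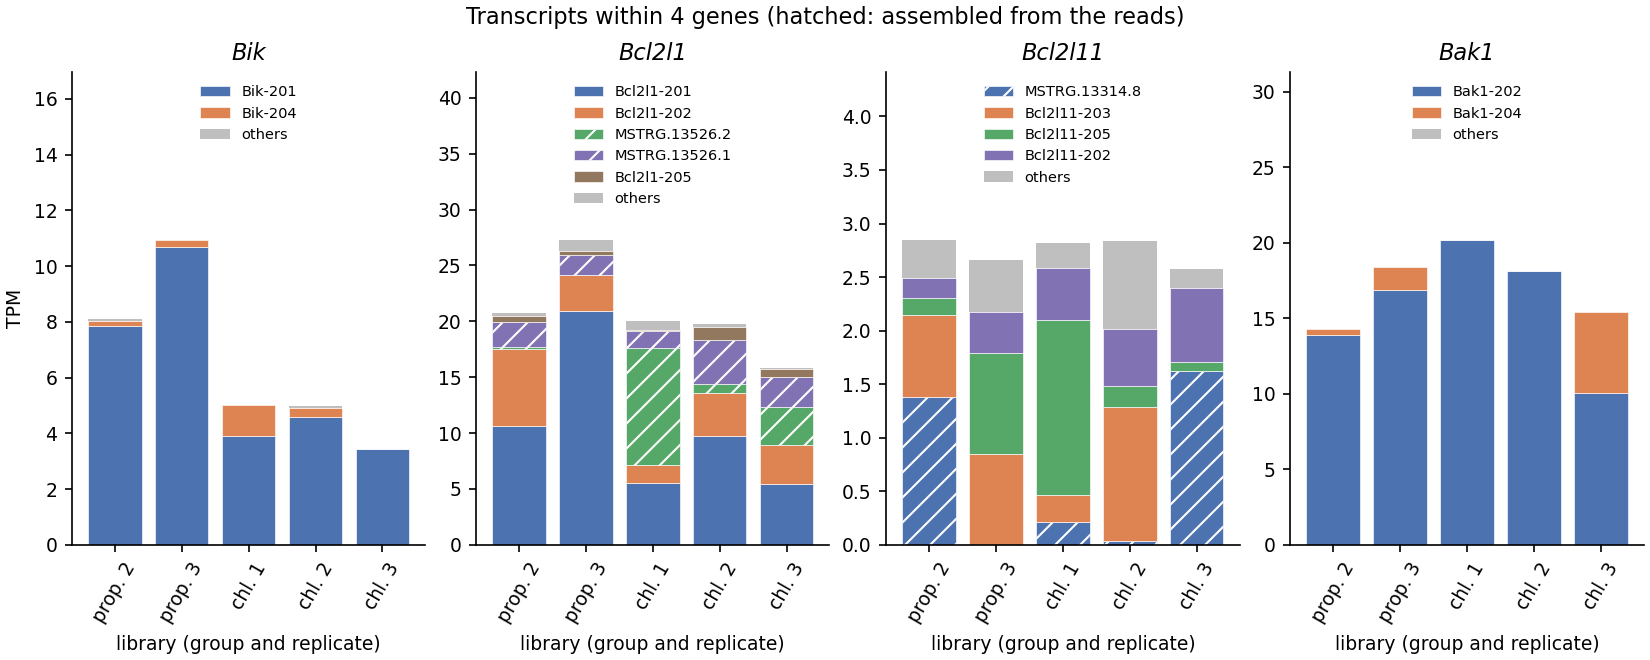
TPM of each transcript of Bik, Bcl2l1, Bcl2l11 and Bak1 stacked by library, the 2 propionate libraries (prop.) left of the 3 chloride libraries (chl.). Hatched parts are transcripts assembled from the reads; Bik is almost entirely Bik-201, whereas the parts of Bcl2l1 and Bcl2l11 change between libraries of the same group, as does Bak1-204 in chloride replicate 3.

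Over the 10 genes, 59 transcripts are listed, 8 of them at 0 in every library. In the fit by transcript, none of the 18 member transcripts tested was called, where 0.0404% of all 32170 transcripts tested were, and 0.0218% were called higher.

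Set beside each other, Bax and Mcl1 were at the top of the family and Bcl2l11 at the bottom in both groups. In propionate libraries the order by mean TPM was Bax, Mcl1, Bcl2l1, Bmf, Bak1, Bid, Bik, Bbc3, Bcl2 and Bcl2l11. Neighbours overlapped there between Bax and Mcl1, between Bmf, Bak1 and Bid, and between Bik, Bbc3 and Bcl2, and all other neighbours were apart. In chloride libraries the order was Bax, Mcl1, Bcl2l1, Bak1, Bmf, Bid, Bbc3, Bcl2, Bik and Bcl2l11, with overlap only in the run of neighbours from Bcl2l1 to Bid. Bik thus stood 7 in the order with propionate and 9 with chloride. Per library, Bik was 1.10 and 1.42 times as high as Bcl2 with propionate, against 0.955, 0.965 and 0.646 times with chloride.

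Among the members, the ratio of pore-forming to survival genes was without overlap between the groups. Bax and Bak1 together had 53.1 and 60.9 TPM with propionate, against 66.4, 69.4 and 57.8 TPM with chloride. The 3 survival genes together had 64.4 and 74.98 TPM with propionate, against 61.4, 60.2 and 56.4 TPM with chloride. The ratio of the pore-forming to the survival sum was 0.825 and 0.812 with propionate, against 1.08, 1.15 and 1.03 with chloride. Being taken within a library, this ratio is not touched by the scaling of libraries. The ratio of Bcl2 to Bax was 0.190 and 0.181 with propionate, against 0.114, 0.101 and 0.126 with chloride, and that of Bcl2l1 to Bax was 0.536 and 0.642 with propionate, against 0.433, 0.385 and 0.375 with chloride. Against the survival sum, the BH3-only sum overlapped, at 0.737 and 0.803 with propionate and 0.816, 0.799 and 0.787 with chloride. These ratios come from RNA and say nothing of the proteins. They rest on members chosen with these values known, and 34.6% of all tested genes were themselves without overlap. Related genes left out of the sums went the other way. Bok, a BAX relative, had a higher mean with propionate (16.1 TPM, against 13.1 TPM with chloride). Bcl2l2, a further survival gene, had a lower mean (16.8 TPM, against 18.3 TPM with chloride).

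Counted together, 7 of the 10 members had a difference above 0, against 44.5% of all tested genes. The libraries of the groups did not overlap in 6 members, of which 5 (Bik, Bmf, Bcl2, Bcl2l1 and Mcl1) were higher with propionate and Bbc3 was lower. Across all tested genes, 34.6% were without overlap, 14.8% higher and 19.7% lower. The median difference of the members was 0.08, beside −0.03 over all tested genes. The choice of members used these values, so they are a description of the set. The propionate libraries also differed from each other: 9 of 10 members were higher in replicate 3 than in replicate 2, as were 74.97% of all tested genes.

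By the root mean square difference of log2(TPM + 1) after centring each gene on its mean over the 5 libraries, the genes with the pattern most like that of Bik were Serpinf1, Mgst2, Krt8, Ecscr and Cysrt1, at 0.0558, 0.0597, 0.0830, 0.0873 and 0.0897. Serpinf1, which codes for the secreted pigment epithelium-derived factor, had 11.6 and 16.8 TPM with propionate, against 7.72, 8.33 and 5.68 TPM with chloride. Krt8, a keratin gene, had 10.5 and 13.5 TPM with propionate, against 7.27, 6.48 and 5.26 TPM with chloride. Like Bik, both were highest in propionate replicate 3 and lowest in chloride replicate 3. Genes chosen for their likeness to Bik differ between the salts by that choice.

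The rest of the apoptosis pathway was followed in 7 lists that hold 86 genes, of which 71 were tested. None of the 71 passed the threshold of limma in either direction, where 1.82% of all tested genes did, and 10 had an unadjusted p under 0.05, as did 1101 genes that were higher and 1235 that were lower among all 13881. Of the 71 genes, 34 had a difference above 0, and their median was −0.01. The libraries of the groups did not overlap in 6 genes that were higher and 13 that were lower with propionate, where 14.8% and 19.7% of all tested genes were, so neither count exceeded its background.

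Of the other survival members, Bcl2l2, the gene of BCL-W, was the only one of 5 above the minimum. It had 16.1 and 17.6 TPM with propionate, against 18.4, 18.9 and 17.6 TPM with chloride. Of 15 other death members and BH3 or BNIP proteins, 10 were tested, and Bok and Bnip1 had the smallest p. Bok, a BAX relative, had 15.3 and 16.9 TPM with propionate, against 14.1, 11.4 and 13.8 TPM with chloride (log2 difference 0.28 ± 0.12, limma adjusted p = 0.289). Bnip1 had 19.95 and 26.5 TPM with propionate, against 28.6, 27.9 and 28.5 TPM with chloride (−0.29 ± 0.13, limma adjusted p = 0.294), a difference of −0.094 without propionate replicate 2 and −0.49 without propionate replicate 3. Both were without overlap, and neither was called. Pmaip1, the gene of NOXA, was listed at 0 in every library.

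All 14 genes of the mitochondrial pore and intermembrane space were tested, 6 with a difference above 0. Vdac2, the outer-membrane channel that holds BAK, had 135 and 153 TPM with propionate, against 127, 122 and 121 TPM with chloride (0.23 ± 0.09, limma adjusted p = 0.257, and 0.14 without propionate replicate 3). Its direction depended on how transcripts were summed: with reference transcripts only it was −1.13 and past the threshold. Slc25a5, an adenine nucleotide carrier of the inner membrane, had 257 and 287 TPM with propionate, against 319, 316 and 325 TPM with chloride (−0.24 ± 0.08, limma adjusted p = 0.205, and −0.16 without propionate replicate 2). All 12 genes of the apoptosome, caspases and their substrates were tested as well, 6 of them above 0. The caspase substrate gene Acin1 had 23.0 and 25.9 TPM with propionate, against 26.9, 30.8 and 29.8 TPM with chloride (−0.24 ± 0.11, limma adjusted p = 0.295), without overlap, and was not called.

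Of 9 inhibitors of apoptosis 8 were tested, 4 of them above 0. Birc3, the gene of cIAP2, had 3.06 and 3.01 TPM with propionate, against 4.98, 4.11 and 4.46 TPM with chloride (−0.45 ± 0.14, limma adjusted p = 0.147). Naip2 had 6.20 and 7.95 TPM with propionate, against 6.34, 4.86 and 4.24 TPM with chloride, with overlap. Of 10 death receptors and adaptors 7 were tested, 2 of them above 0. Tnfrsf10b, the mouse TRAIL receptor gene, differed by 0.16 ± 0.20 and Daxx by −0.10 ± 0.12, and Fas stayed under 0.2 TPM in every library.

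Of 21 regulators of the family 19 were tested, 10 of them above 0, and Stat3 and Btrc had the smallest p. STAT3 is a known activator of Bcl2l1 and Mcl1 transcription. Stat3 had 44.3 and 48.9 TPM with propionate, against 38.9, 36.9 and 33.3 TPM with chloride (0.35 ± 0.10, limma adjusted p = 0.143). Btrc codes for a substrate receptor of an SCF ubiquitin ligase. It had 11.3 and 11.6 TPM with propionate, against 16.5, 15.0 and 15.6 TPM with chloride (−0.42 ± 0.10, limma adjusted p = 0.0797). Both genes were without overlap. Btrc passed the threshold with FPKM and both passed it with median-of-ratios scaling, at adjusted p-values of 0.0498 to 0.0499.

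**Figure D5:**
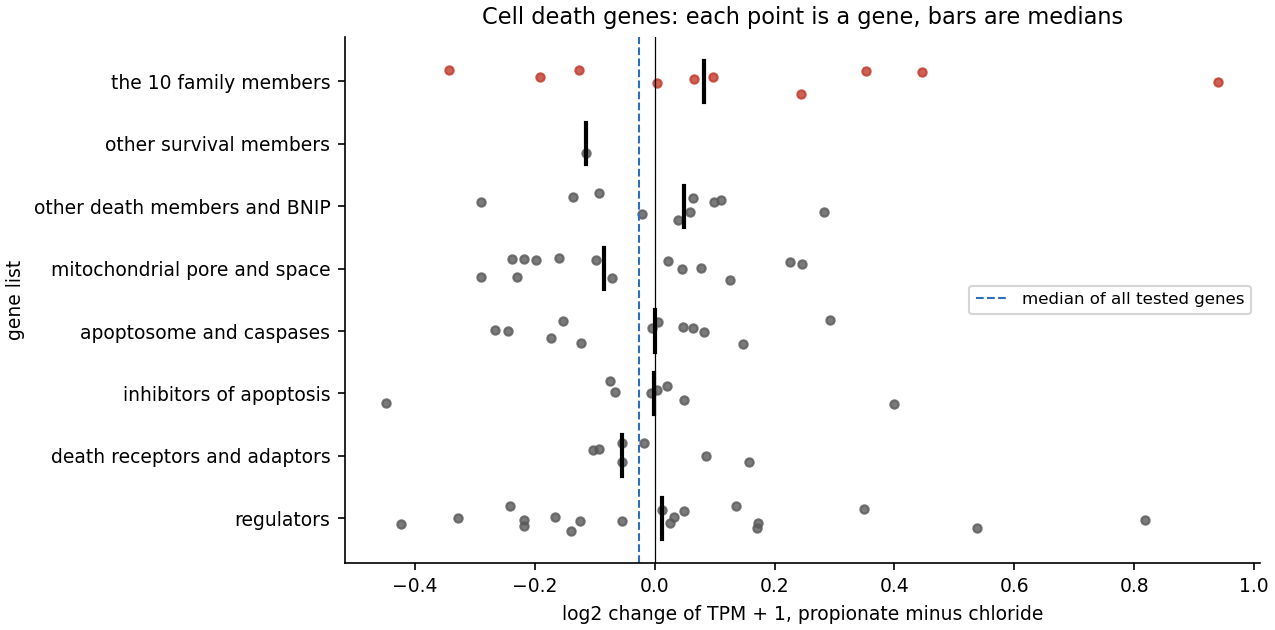
Difference of log2(TPM + 1), propionate minus chloride, for the 10 members (red) and for the 71 tested genes of the other apoptosis lists (grey), a row per list. Black bars are medians, 0.08 for the members, and the dashed line is the median of all tested genes; within the other lists most points lie between −0.3 and 0.3.

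The libraries were of similar depth, with 7.23 to 7.44 Gb of aligned bases with propionate and 7.19 to 7.63 Gb with chloride. Of 10 glioma and glial markers, 8 reached a mean of 1 TPM, while Olig2 and Slc1a3 did not. Pdgfra was called higher, at 22.6 and 22.4 TPM with propionate, against 11.6, 11.1 and 12.4 TPM with chloride (limma adjusted p = 0.00717). Without being called, Gfap and Cspg4 were higher without overlap and S100b lower, at 147 and 167 TPM with propionate, against 208, 194 and 203 TPM with chloride. Of 9 leukocyte and microglia markers Cd68 alone reached a mean of 1 TPM, and Itgam was listed at 0 throughout. The sum of these markers was 11.1 to 13.7 TPM with propionate and 6.74 to 8.08 TPM with chloride. It is almost all Cd68, at 10.1 and 12.1 TPM with propionate, against 7.59, 7.03 and 6.22 TPM with chloride. Among the rest, Tmem119 was higher and Csf1r lower, each without overlap. Of 4 fibroblast markers Col3a1 and Pdgfrb reached a mean of 1 TPM, and the sum was 101 to 120 TPM with propionate and 131 to 144 TPM with chloride. That sum is almost all Col3a1, at 98.8 and 118 TPM with propionate, against 142, 143 and 130 TPM with chloride, and Pdgfrb went the other way, at 2.29 and 1.91 TPM with propionate, against 1.01, 0.652 and 0.626 TPM with chloride. None of 6 endothelial or 5 neuronal markers reached a mean of 1 TPM. The part of these marker genes in the differences of Bik and the other members was not tested. In RNA from whole cultures, fewer cells that express a gene and less RNA per cell cannot be told apart.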

How the data were processed

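RNA of GL261 cells (5 libraries) was prepared with the RNeasy Mini Plus kit and a stranded TruSeq total RNA kit, per the labels' protocols. Tools named in the submitters' processing notes are bcl2fastq, fastp, HISAT2 and StringTie, with the build mm10. Per the file headers, StringTie 2.1.1 wrote the deposited TPM, FPKM and coverage of each transcript, with no strand option. No read counts were used, so no counting intervals are given. Gene TPM is the sum over a gene's Ensembl transcripts and the assembled transcripts of its locus that overlap its exons on the same strand. Genes with a mean of at least 1 TPM were tested on log2(TPM + 1) with limma 3.58.1 in R 4.3.3 (trended variance, two-sided, group as the only term, Benjamini-Hochberg adjustment over all genes, threshold 0.05), and transcripts likewise. The script was tested on simulated data. Members, lists and tests were chosen with earlier results of these data known. All 10 members are named; from each list the genes called or, with none called, the 2 with the smallest p (the values of 1 list gene are not reported here); and the 5 genes nearest to Bik. Alternatives changed the pseudocount, minimum, unit, scaling, transcripts, pairing and libraries. No 2 libraries held the same values: within a group the SD of log2 differences was 0.321 to 0.34. Reads of close copies, of overlapping genes and of antisense genes cannot be told apart in these sums.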

Additional observations from a re-analysis of the deposited data

How the results depend on the processing

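Over 13 alternative settings, the numbers of genes called depended strongly on the setting. The difference of Bik was 0.74 to 1.14; its sign could not turn with a library left out, since its groups do not overlap. Genes called higher numbered 182 and lower 70. They were 2 and 1 with no minimum, 336 and 153 with median-of-ratios scaling, 311 and 159 with TPM over protein-coding genes, and 5 and 6 with reference transcripts only, and 118 were lower with FPKM. Leaving out propionate replicate 2 or 3 gave 114 and 8 higher and 22 and 7 lower, and leaving out chloride replicate 1, 2 or 3 gave 66, 111 and 124 higher and 12, 29 and 46 lower. Where this leaves 1 propionate library, it is assumed to vary like the chloride libraries. The number of members called higher was 1, and 0 with no minimum and with reference transcripts only, and 0 to 1 with a library left out; the number called lower was 0 throughout. Transcripts called higher numbered 7, and 3 each with a pseudocount of 0.1, a minimum of 5 TPM and no minimum, and 0 to 165 with a library left out. Transcripts called lower numbered 6, and 3 with no minimum and 0 to 35 with a library left out.

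Signs turned for Bcl2l11 (−0.029 without chloride replicate 3 and −0.032 without propionate replicate 2, in a range up to 0.041 with a library left out), Bid (−0.037 on reference transcripts alone and −0.17 without propionate replicate 3, in a range up to 0.30), Bak1 (0.044 without propionate replicate 2, in a range down to −0.30), Bcl2l2 (0.51 with reference transcripts only), Tnfrsf10b (−0.069 without propionate replicate 3, in a range up to 0.38) and Vdac2 (−1.13 with reference transcripts only). The causes were not tested.

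With the replicate number as a block, 264 genes were higher and 104 lower, 1 member was called, Bik at 1.01, and the transcripts called numbered 0 higher and 0 lower. The deviations of samples with the same number correlated at −0.22 and −0.20, and no label states that the numbers pair samples, so the samples share only a number.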

Other observations

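Further regulators of the family outside the naming rule, chosen after their values were seen, are given here as values, and none was called. Trp53, the gene of p53, had 8.07 and 9.37 TPM with propionate, against 12.3, 11.8 and 9.59 TPM with chloride, a log2 difference of −0.33 ± 0.13 (limma adjusted p = 0.270) without overlap. Dynll1, a dynein light chain gene, had 176 and 358 TPM with propionate, against 173, 181 and 164 TPM with chloride, so that the groups overlapped and 1 propionate library was high. Atf4, a transcription factor gene of the integrated stress response, had 25.7 and 24.6 TPM with propionate, against 25.3, 17.5 and 5.67 TPM with chloride, so that the groups overlapped and 1 chloride library was low. Dynll1 passed the threshold without propionate replicate 2 and Atf4 with the replicate block.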
